A study of Homo sapiens with 12 samples.

Results

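The E2F transcription factors and the RB proteins are described here in melanoma cells by 10 genes, E2F1 to E2F8, RB1 and RBL1, chosen by name and not by their levels, out of 58307 named rows in the count table. Earlier results of these data were known when these genes, and the lists set beside them below, were chosen. Each symbol had 1 row, and all 10 passed the filter on low counts in both cell lines. RNA was sequenced from 12 libraries of A375 and SK-MEL-28, established human melanoma lines. In each line, 3 libraries came from cells given etoposide, a topoisomerase II poison, and 3 from cells given etoposide + rapamycin, rapamycin being an inhibitor of the kinase mTOR that the study used to induce autophagy. The comparisons ask how these mRNAs differed when rapamycin was added to etoposide, whether that response differed between the lines, and how the lines differed from each other. All 12 libraries had etoposide. Cells given rapamycin alone or no drug were not analysed here, and the doses and times used for the RNA are not given in the sources used here.

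E2F factors bind promoters of genes for DNA synthesis and cell division. E2F1, E2F2 and E2F3 mainly activate them, E2F4 and E2F5 mainly repress them together with pocket proteins, E2F6 represses through a polycomb complex without pocket proteins, and E2F7 and E2F8 repress without the DP partner that the others need. RB1 and RBL1 (p107) are pocket proteins: they hold E2F factors silent until cyclin-dependent kinases phosphorylate them late in G1. In melanoma this switch is often loosened upstream, through loss of the kinase inhibitor p16. mRNA levels do not report on phosphorylation.

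Several of these genes are themselves known as E2F targets, so their promoters are shown. RefSeq promoter windows of 300 bases (GRCh38.p14, 250 bases before the start and 50 after) were matched for 8 of the 10 genes, E2F3 having a pair of windows. E2F5 and E2F8 had no entry in the table used. The window listed for RB1 (chr13:48476200-48476499) lay inside the gene, not at its main start. An E2F motif was counted where TTTCCCGC, TTTCGCGC, TTTGCCGC or TTTGGCGC stood on either strand. It was present in 3.31% of 35116 windows and in the windows of E2F1, E2F2, E2F3 (1 of its windows) and RBL1. The windows of E2F4, E2F6, E2F7 and RB1 held none of these letters. Below are the 100 bases before the start of the 4 genes with a match, each on the strand of its gene and with the motif in capitals. They lie at chr20:33686386-33686485 (minus strand, E2F1), chr1:23531234-23531333 (minus strand, E2F2), chr6:20401779-20401878 (plus strand, E2F3) and chr20:37095998-37096097 (minus strand, RBL1).
E2F1: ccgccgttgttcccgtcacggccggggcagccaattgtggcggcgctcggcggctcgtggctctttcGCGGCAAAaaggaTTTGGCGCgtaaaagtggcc
E2F2: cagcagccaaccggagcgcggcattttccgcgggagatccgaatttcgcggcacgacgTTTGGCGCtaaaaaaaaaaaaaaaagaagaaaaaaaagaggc
E2F3: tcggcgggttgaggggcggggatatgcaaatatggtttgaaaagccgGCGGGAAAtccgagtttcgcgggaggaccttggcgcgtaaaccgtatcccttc
RBL1: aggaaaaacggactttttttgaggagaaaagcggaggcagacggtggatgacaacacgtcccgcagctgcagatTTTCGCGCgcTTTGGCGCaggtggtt
The motifs began 33 and 20 bases before the start in E2F1, 42 in E2F2, 53 in E2F3, and 26 and 16 in RBL1. All 4 genes, RBL1 as well as the activators, thus have a match within the last 60 bases. Whether a match bears on the responses that follow was not tested. A match is a string of letters and not a measured binding site.

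Library totals ran from 28189501 to 32499337 counts. Melanocyte lineage markers, 12 genes, summed to between 1808 and 2158 CPM (counts relative to the library total, which TMM rescales) in A375 with etoposide and to between 2796 and 3114 with rapamycin added. In SK-MEL-28 the sums were 1524 to 1714 and 1679 to 1956. CSPG4 and SOX10 gave most of this. The larger sum with rapamycin in A375 was CSPG4 (log2 0.85), the 1 marker called higher of 11 tested, while MITF, DCT, S100B and S100A1 were called lower, 9 of the 11 had a negative log2 fold change and the median was -0.35. In SK-MEL-28, 1 (CSPG4) was called higher and 1 (MITF) lower, with a median of -0.06. Across the libraries, the pigment genes MLANA and PMEL stayed under 3 CPM in every library and TYR was at 0 in all 6 libraries with rapamycin. Markers of other cell types, 12 genes, summed to 61.2 to 90.1 CPM across the libraries. Of the 6 tested in A375, 1 was called higher and 1 lower. Of the 7 tested in SK-MEL-28, 1 was called higher and 2 lower. The part of these marker differences in the results was not tested. A call below means an adjusted p under 0.05 by the quasi-likelihood test of edgeR, adjusted by Benjamini-Hochberg for every gene tested, and errors of log2 fold changes are standard errors.

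The activator E2F1 (chr20:33675477-33686385, minus strand, 7 exons) rose with rapamycin in both lines. In A375 with etoposide it was at 44.4, 40.4 and 39.3 CPM, and with etoposide + rapamycin at 63.8, 62.0 and 69.7 CPM. The 3 libraries with rapamycin were all above the 3 without. Means were 41.4 ± 2.7 and 65.1 ± 4.0 CPM (SD, n = 3), a 1.58-fold rise, with a log2 fold change of 0.66 (SE 0.065, adjusted p = 1.8e-05). SK-MEL-28 cells held less E2F1, at 14.4, 15.9 and 18.7 CPM with etoposide and 22.8, 23.7 and 19.7 CPM with rapamycin added. The groups again did not overlap, although the highest library without rapamycin and the lowest with it were only about 1 CPM apart. The rise in SK-MEL-28 was 1.34-fold (log2 0.43, SE 0.11, adjusted p = 0.0163). It lost the call without rapamycin replicate 2 (adjusted p = 0.0691), without etoposide replicate 1 (0.0710) and without etoposide replicate 2 (0.0584), with log2 fold changes of 0.38, 0.34 and 0.41.

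E2F2, the activator with the lowest level, had the largest fold change of the 10 genes in both lines. It lies at chr1:23506438-23531233 (minus strand, 7 exons). A375 libraries gave 2.75, 2.85 and 3.16 CPM with etoposide and 5.88, 5.25 and 5.67 CPM with etoposide + rapamycin. SK-MEL-28 libraries gave 1.67, 1.52 and 1.15 CPM, then 3.62, 3.47 and 3.71 CPM. No library with rapamycin came near the range without it in either line. E2F2 rose 1.92-fold in A375 (log2 0.94, SE 0.16, adjusted p = 0.000752) and 2.48-fold in SK-MEL-28 (log2 1.31, SE 0.21, adjusted p = 0.000739). These values rest on few reads, 38 to 51 counts per library in SK-MEL-28 with etoposide and 97 to 114 with rapamycin. E2F2 was among the genes the study listed from these libraries, so its direction here is not independent evidence.

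E2F3 (chr6:20401879-20493714, plus strand, 7 exons), the remaining activator, did not share this rise. It stood at 30.4, 29.5 and 30.7 CPM in A375 with etoposide and at 29.97, 27.7 and 27.8 CPM with rapamycin added. In SK-MEL-28 it went from 38.3, 36.7 and 37.2 CPM to 34.6, 34.1 and 32.9 CPM. The A375 groups overlapped and the SK-MEL-28 groups did not. Neither difference passed the test: the log2 fold change was -0.08 in A375 (adjusted p = 0.457, 95% interval -0.23 to 0.08) and -0.15 in SK-MEL-28 (adjusted p = 0.131, interval -0.28 to -0.01 before adjustment). A rise of E2F3 as large as that of E2F1 thus lay outside both intervals.

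**Figure D1:**
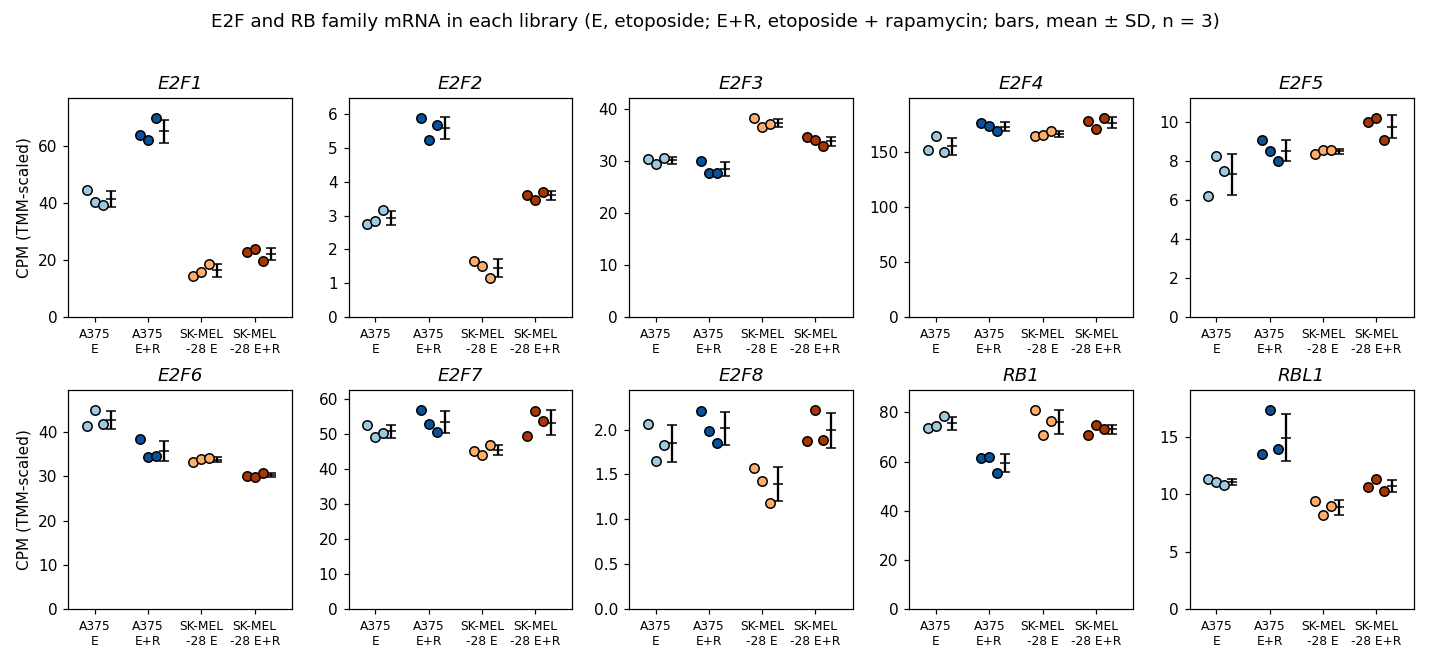
CPM (vertical axes, linear and starting at 0) of the 10 genes in each of the 12 libraries, by cell line and treatment, with the mean ± SD of 3 libraries at the right of each group. E2F1 and E2F2 are higher in every library with rapamycin of either line, whereas E2F3 is not. RB1 is lower in every rapamycin library of A375, and its groups overlap in SK-MEL-28.

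Among the repressors that work with pocket proteins, E2F4 rose slightly in A375. E2F4 (chr16:67192155-67198918, plus strand, 10 exons) is the E2F that most often occupies the promoters of resting cells. Its levels were 152, 165 and 150 CPM in A375 with etoposide and 177, 174 and 169 CPM with rapamycin added. The groups did not overlap, and the change of 1.12-fold (log2 0.16, SE 0.049) had an adjusted p of 0.0259. It lost the call with library totals in place of TMM (adjusted p = 0.0868), with the replicate number as a block (0.0546), and without rapamycin replicate 1 (0.0978), rapamycin replicate 2 (0.0712) or etoposide replicate 3 (0.107). SK-MEL-28 libraries held 165, 166 and 170 CPM, then 179, 171 and 181 CPM, a log2 fold change of 0.08 that did not pass the test (adjusted p = 0.272). E2F5, read at 6.19 to 10.2 CPM in all libraries, did not pass in A375 (log2 0.23, SE 0.13, adjusted p = 0.232) or in SK-MEL-28 (log2 0.19, SE 0.11, adjusted p = 0.241). E2F5 overlaps RBIS on the opposite strand, and since the strand of the kit is not stated in the sources used here, reads of the 2 genes may not be separable.

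E2F6 (chr2:11444375-11466177, minus strand, 7 exons) fell in A375. It acts in the polycomb complex PRC1.6, which silences germline genes. With etoposide it was at 41.4, 44.99 and 41.8 CPM in A375, against 38.4, 34.4 and 34.7 CPM with rapamycin added. The 3 rapamycin libraries were all lower, by 15.8% in the fit (log2 -0.25, SE 0.067, adjusted p = 0.0150). The call was lost without rapamycin replicate 2 (adjusted p = 0.0688), rapamycin replicate 3 (0.0590) or etoposide replicate 2 (0.0717). In SK-MEL-28 it was at 33.2, 34.0 and 34.2 CPM and at 30.1, 29.9 and 30.9 CPM, also without overlap, and did not pass (log2 -0.16, SE 0.065, adjusted p = 0.111).

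The atypical repressors gave 1 call. E2F7 (chr12:77021248-77065569, minus strand, 13 exons), a p53-responsive brake on the same genes that E2F1 turns on, rose in SK-MEL-28 from 45.1, 44.03 and 46.9 CPM to 49.3, 56.5 and 53.6 CPM. This was a 1.17-fold change (log2 0.22, SE 0.062, adjusted p = 0.0237). The adjusted p rose to 0.0959 without rapamycin replicate 2, 0.0782 without rapamycin replicate 3, 0.0531 without etoposide replicate 1 and 0.0741 without etoposide replicate 2. In A375 it ran 52.6, 49.0 and 50.3 CPM and then 56.7, 52.9 and 50.6 CPM, with overlap and no call (log2 0.08, SE 0.059, adjusted p = 0.346). E2F8 (chr11:19224063-19241620, minus strand, 13 exons) was the least abundant gene by CPM, at 39 to 63 counts per library. It gave 2.06, 1.65 and 1.83 CPM, then 2.21, 1.99 and 1.85 CPM in A375, and 1.57, 1.42 and 1.18 CPM, then 1.87, 2.22 and 1.89 CPM in SK-MEL-28. The SK-MEL-28 groups did not overlap, yet the log2 fold change of 0.51 (SE 0.24) had an adjusted p of 0.159. At this depth its 95% interval in A375 reached from -0.35 to 0.61, so a change of moderate size in either direction was not detectable.

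The pocket proteins moved in opposite directions in A375. RB1 (chr13:48303744-48599436, plus strand, 27 exons) fell, from 73.5, 74.6 and 78.6 CPM to 61.4, 61.7 and 55.2 CPM. No library overlapped, and the change was a fall of 21.1% (log2 -0.34, SE 0.057, adjusted p = 0.000810). In SK-MEL-28 the levels were 80.9, 70.9 and 76.7 CPM and 71.0, 74.9 and 73.5 CPM, with overlap and a log2 fold change of -0.06 (SE 0.056, adjusted p = 0.496, 95% interval -0.18 to 0.06). The gene overlaps LPAR6 and RCBTB2 on the opposite strand, which averaged 206 and 186.5 counts against 2132 for RB1. RBL1 (chr20:36996349-37095997, minus strand, 22 exons), itself a classical E2F target, rose in A375 from 11.3, 11.03 and 10.7 CPM to 13.5, 17.3 and 13.9 CPM. Rapamycin replicate 2 stood highest. The rise was 1.36-fold (log2 0.44, SE 0.11, adjusted p = 0.0112), and without that library it was 0.32 on the log2 scale with an adjusted p of 0.0544. SK-MEL-28 gave 9.38, 8.17 and 8.96 CPM and then 10.6, 11.3 and 10.3 CPM, again without overlap but short of the threshold (log2 0.28, SE 0.11, adjusted p = 0.0976).

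Counted together, 4 of the 10 genes rose in A375 (E2F1, E2F2, E2F4 and RBL1) and 2 fell (E2F6 and RB1), while 28.1% of 18844 genes tested were called there, 14.3% higher and 13.8% lower. In SK-MEL-28, 3 rose (E2F1, E2F2 and E2F7) and none fell, against 19% of 18897 genes, 8.83% higher and 10.1% lower. For none, the count of members lower at an unadjusted p under 0.05 was 2 (E2F3 and E2F6), and DESeq2 called 0 as well. Over the 10 genes the median log2 fold change was 0.14 for A375 and 0.21 for SK-MEL-28, beside -0.0051 and 0.0053 over all genes tested. With the study's added threshold of a 1.5-fold change, E2F1 and E2F2 remained in A375 and E2F2 in SK-MEL-28, where 5.89% and 4.99% of all genes passed, 3.09% higher in A375 and 1.85% higher and 3.14% lower in SK-MEL-28. Libraries of the groups did not overlap for 6 genes in A375, 4 higher and 2 lower, and for 9 in SK-MEL-28, 7 higher and 2 lower, when 42.6% and 35.9% of all genes tested had no overlap. With library totals in place of TMM, the calls over all genes in A375 were 2213 higher and 3364 lower, against 2691 and 2604, and in SK-MEL-28 1337 higher and 2379 lower, against 1668 and 1914.

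**Figure D2:**
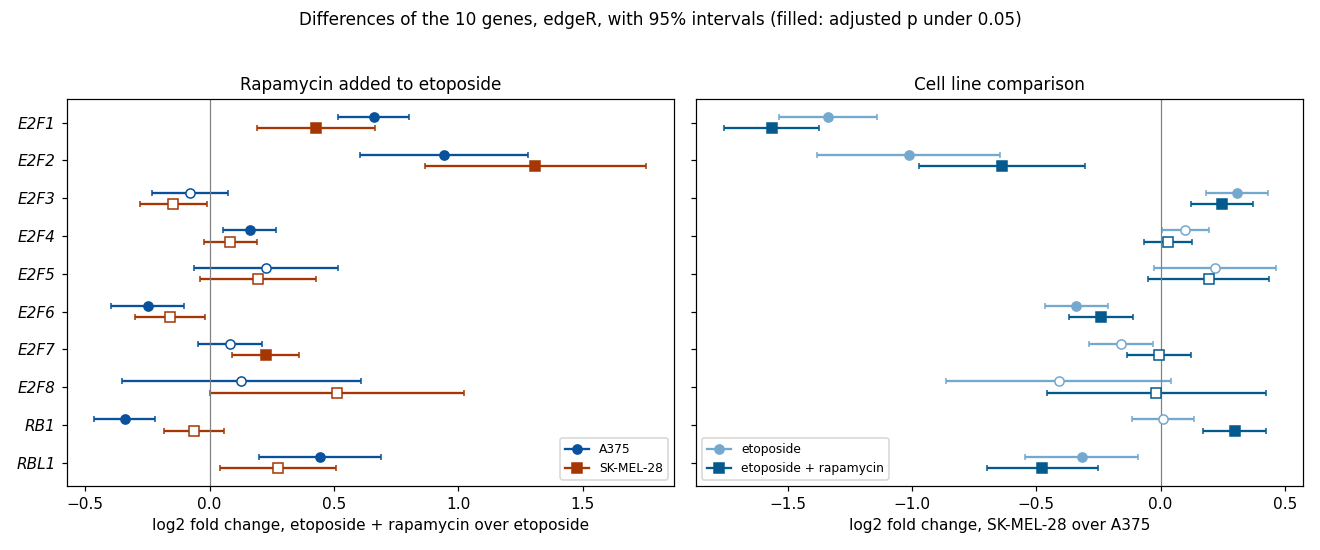
Log2 fold changes (horizontal axes) of the 10 genes with 95% intervals, for rapamycin added to etoposide in each line (left) and for SK-MEL-28 over A375 in each treatment (right); filled symbols have an adjusted p under 0.05. At left E2F2 and E2F1 lie farthest from 0 on the positive side in A375, and at right E2F1 is farthest on the negative side, at -1.34 and -1.56.

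The response to rapamycin was not shown to differ between the lines for any of the 10 genes. By the interaction test over 20101 genes, 0 were called at the adjusted threshold, when 5.62% of all genes were (2.66% higher and 2.97% lower, and 1.62% with a fold over 1.5), and 1 (RB1) had an unadjusted p under 0.05. RB1 came nearest: its fall was 0.29 smaller on the log2 scale in SK-MEL-28 (SE 0.084, 95% interval 0.11 to 0.47, adjusted p = 0.0571). DESeq2 called it (adjusted p = 0.0271), as did edgeR on halved counts (0.0482) and without SK-MEL-28 etoposide replicate 1 (0.0282), and over all libraries left out in turn the adjusted p ran from 0.0282 to 0.156. For E2F1 the difference was -0.23 (interval -0.50 to 0.05, adjusted p = 0.356) and for E2F2 it was 0.37 (interval -0.12 to 0.87, adjusted p = 0.405). These intervals leave room for a response of either gene that differs between the lines.

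Between the lines, E2F1 and E2F2 differed most. SK-MEL-28 had 2.53-fold less E2F1 than A375 with etoposide (log2 -1.34, SE 0.093, adjusted p = 7.27e-09) and 2.96-fold less with etoposide + rapamycin (log2 -1.56, SE 0.091, adjusted p = 6.12e-10). E2F2 was 2.02-fold lower with etoposide (log2 -1.01, SE 0.17, adjusted p = 0.000230) and 1.56-fold lower with rapamycin added (log2 -0.64, SE 0.16, adjusted p = 0.00408). E2F3 went the other way, 1.24-fold higher in SK-MEL-28 with etoposide (adjusted p = 0.000586) and 1.19-fold with rapamycin (adjusted p = 0.00295). E2F6 was lower in SK-MEL-28 under both treatments (log2 -0.34 and -0.24, adjusted p = 0.000333 and 0.00497). RBL1 was also lower, by -0.32 on the log2 scale with etoposide (adjusted p = 0.0325) and -0.48 with rapamycin (adjusted p = 0.00181). The first of these RBL1 calls was lost by DESeq2 (adjusted p = 0.0627), when genes with 1 count in any library were kept (0.0743), and without any of the 3 A375 etoposide libraries (0.0899, 0.0740 and 0.0576 for replicates 1, 2 and 3) or SK-MEL-28 etoposide replicates 2 or 3 (0.128 and 0.0658). RB1 had similar means with etoposide, 75.6 ± 2.7 CPM in A375 and 76.1 ± 5.1 in SK-MEL-28 (adjusted p = 0.917), and 1.23-fold higher in SK-MEL-28 with rapamycin (log2 0.30, SE 0.060, adjusted p = 0.000776). In all, 1 gene was higher and 4 lower in SK-MEL-28 with etoposide, and 2 higher and 4 lower with rapamycin, when 31.8% (15.1% higher, 16.7% lower) and 37.8% (18.9% in each direction) of all genes were called. With a fold over 1.5 as well, E2F1 and E2F2 were the 2 lower genes under either treatment, where 5.39% of all genes were higher and 7.16% lower with etoposide, and 6.17% and 8.23% with rapamycin. E2F4 and E2F7 did not pass with etoposide (log2 0.10, adjusted p = 0.107, and -0.16, adjusted p = 0.0570). E2F4 did without A375 etoposide replicate 2 (adjusted p = 0.0298), and E2F7 without SK-MEL-28 rapamycin replicate 1 (0.0469). Cell line and everything else that differs between these cultures cannot be told apart.

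Per length, the order of the genes was led by E2F4. Divided by the length of the canonical transcript in GENCODE release 44, its level was 73.8, 82.2, 79.1 and 83.9 CPM per kb in A375 with etoposide, A375 with rapamycin added, SK-MEL-28 with etoposide and SK-MEL-28 with rapamycin added. RB1 followed in A375 with etoposide at 15.9 CPM per kb, and its libraries overlapped with those of E2F1 at 15.4. Next came E2F6 at 13.2, E2F7 at 8.85, E2F3 at 5.999, E2F5 at 3.73 and RBL1 at 1.94, each apart from its neighbour, and then E2F2 at 0.562 and E2F8 at 0.498, which overlapped. With rapamycin added in A375, E2F1 at 24.2 CPM per kb stood above RB1 at 12.5 with no overlap, and RB1 overlapped with E2F6 at 11.1. In SK-MEL-28, E2F1 ranked below RB1, E2F6, E2F7 and E2F3 with etoposide, at 6.07 CPM per kb. With rapamycin it passed E2F3 and overlapped with E2F7, at 8.19 against 9.28. E2F2 and E2F8 were lowest in all 4 groups.

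Of the summed E2F1 to E2F8 mRNA per kb, E2F4 made up 60.4% ± 1.0 and 59.4% ± 0.85 in A375 without and with rapamycin and 68.2% ± 0.27 and 67.8% ± 1.3 in SK-MEL-28 (SD, n = 3). E2F1 made up 12.6% ± 0.92 in A375 with etoposide and 17.5% ± 1.2 with rapamycin added, ranges that did not overlap. Its share in SK-MEL-28 was 5.23% ± 0.60 and 6.62% ± 0.68. These ranges also did not overlap, but only narrowly: the highest share without rapamycin was 5.864% and the lowest with rapamycin 5.871%. The 3 activators together made up 18.0% of the sum without rapamycin and 22.4% with it in A375. In SK-MEL-28 they made up 11.9% and 12.6%. A375 cells held a summed level of 122 ± 4.1 CPM per kb with etoposide and 139 ± 2.8 with rapamycin added. SK-MEL-28 cells held 116 ± 2.2 and 124 ± 1.2 CPM per kb. The activators thus held a larger part of the E2F mRNA in A375, and most of their gain there was E2F1. In a sum over bulk RNA, a change in the share of cells in a cycle phase and a change in RNA per cell cannot be told apart.

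**Figure D3:**
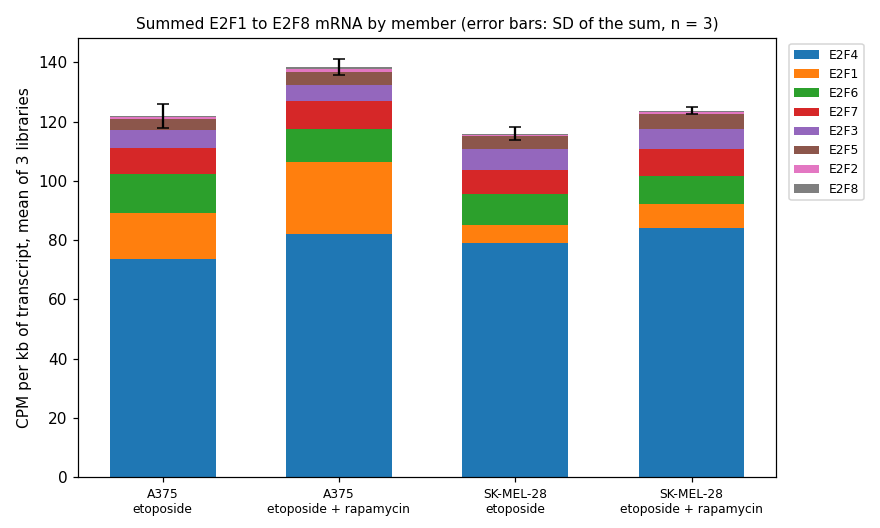
Stacked bars of mean CPM per kb of canonical transcript for E2F1 to E2F8 in the 4 groups, with the SD of the sum over 3 libraries. E2F4 is the tallest block in every group, and the E2F1 block grows from 15.4 to 24.2 CPM per kb in A375 and from 6.07 to 8.19 in SK-MEL-28.

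Some partners of the E2F factors rose as well. TFDP2, which encodes a DP subunit, rose in both lines (log2 0.46, adjusted p = 0.000493 in A375, and 0.52, adjusted p = 5.78e-05 in SK-MEL-28). TFDP1, the other DP subunit tested, rose in A375 (0.13, adjusted p = 0.0442). RBL2 (p130), the pocket protein that joins E2F4 in resting cells, rose in SK-MEL-28 (0.18, adjusted p = 0.0305), as did LIN52 of the MuvB core (0.46, adjusted p = 0.0366). MYBL2 (B-MYB) and FOXM1, which turn MuvB into an activator of mitotic genes, rose in A375 by 1.09 (adjusted p = 5.11e-06) and 0.68 (adjusted p = 2.34e-05). In SK-MEL-28 their log2 fold changes were 0.16 and 0.08 and did not pass, and the difference between the lines did (-0.92, adjusted p = 0.000365, and -0.59, adjusted p = 0.00418). Of 11 listed partners 10 were tested, with 4 rising in A375 (6 did not pass) and 3 in SK-MEL-28 (7 did not pass), the medians being 0.19 and 0.12. Over all genes tested, 14.3% were called higher in A375 and 8.83% in SK-MEL-28.

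Among the genes that set RB phosphorylation, 12 of 14 were tested. CDKN2A, the gene of p16, was not on this list. In A375, 4 rose and 3 fell, beside 14.3% higher and 13.8% lower over all genes. In SK-MEL-28, 4 rose and 1 fell, beside 8.83% and 10.1%, so the single fall is near the share over all genes. CDK2, the kinase of late G1, rose in both lines (log2 0.24, adjusted p = 0.0132, and 0.47, adjusted p = 4.99e-05), and CDKN1A (p21), an inhibitor of CDK2 and a p53 target, fell in both (-0.33, adjusted p = 9.04e-05, and -0.35, adjusted p = 3.84e-05). Other inhibitors rose: CDKN1C (p57) in both lines (0.55, adjusted p = 0.00209, and 0.89, adjusted p = 0.000215), and CDKN1B (p27) and CDKN2C (p18) in A375 (0.34, adjusted p = 0.00152, and 0.54, adjusted p = 0.000476). CCND1 (cyclin D1), which starts RB phosphorylation, fell in A375 (-0.13, adjusted p = 0.0246) and rose in SK-MEL-28 (0.27, adjusted p = 0.000387), with a tested difference of 0.41 (adjusted p = 0.000137). CDK6, its kinase partner, fell in A375 (-0.19, adjusted p = 0.0194).

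G1/S genes known as E2F targets, 40 genes for replication and nucleotide supply, rose with rapamycin in part in both lines. In A375, 32 rose and 8 did not pass, with a median log2 fold change of 0.45. In SK-MEL-28, 15 rose and 25 did not pass, with a median of 0.23. The shares of all genes called higher were 14.3% and 8.83%. CDT1, a replication licensing factor, rose most in SK-MEL-28 (0.82, adjusted p = 7.03e-05) and by 0.97 in A375 (adjusted p = 3.59e-05). TK1, the S phase thymidine kinase, rose most in A375 (1.09, adjusted p = 1.22e-05) and had 0.18 in SK-MEL-28 (adjusted p = 0.310). MCM7, a subunit of the replicative helicase, rose by 0.92 (adjusted p = 9.24e-08) and 0.67 (adjusted p = 1.79e-05). DNMT1 rose in A375 (0.38, adjusted p = 0.000687) and not in SK-MEL-28 (0.02, adjusted p = 0.859), and the replication clamp PCNA, also a p53 target, passed in neither line (-0.10, adjusted p = 0.225, and 0.06, adjusted p = 0.492). Promoter windows were found for 35 of these genes, and 41.8% of their 55 windows held the E2F motif that stands in capitals above. The interaction test called 5 of the 40, all with a smaller response in SK-MEL-28, when 5.62% of all genes were called and 2.97% in that direction.

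G2/M genes bound by DREAM and B-MYB-MuvB separated the lines more. Of 30 genes, 19 rose in A375 and 11 did not pass, with a median of 0.47, when 14.3% of all genes were called higher. In SK-MEL-28, 1 rose and 5 fell, with a median of -0.07, when 8.83% of all genes were called higher and 10.1% lower. MKI67, the proliferation antigen, rose by 1.08 in A375 (adjusted p = 3.48e-07) and was at 0.01 in SK-MEL-28 (adjusted p = 0.917). TOP2A, whose enzyme etoposide poisons, rose in A375 (0.49, adjusted p = 2.67e-05) and fell in SK-MEL-28 (-0.32, adjusted p = 0.00123). BUB1, a spindle checkpoint kinase, likewise rose (0.40, adjusted p = 0.0311) and fell (-0.48, adjusted p = 0.0185). KIF11, a spindle motor, was the gene that rose in SK-MEL-28 (0.29, adjusted p = 0.0264), after 0.51 in A375 (adjusted p = 0.000739). CENPF, a kinetochore protein, rose in A375 (0.76, adjusted p = 1.43e-05) and had 0.10 in SK-MEL-28 (adjusted p = 0.553). The difference between the lines was negative for all 30 genes, median -0.51 against 0.018 over all genes tested, and was called for 11, beside 5.62% of all genes (2.97% lower). With etoposide alone, SK-MEL-28 against A375 had 15 of the 30 higher and 0 lower (median 0.32), beside 15.1% and 16.7% of all genes. With rapamycin added, 2 were higher and 13 lower (median -0.22), beside 18.9% of all genes in each direction. The E2F motif stood in 12.9% of the promoter windows of this list, against 3.31% of all windows. A CHR motif (TTTGAA or TTCGAA, either strand) stood in 74.2% of them, against 16.4% of all windows.

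**Figure D4:**
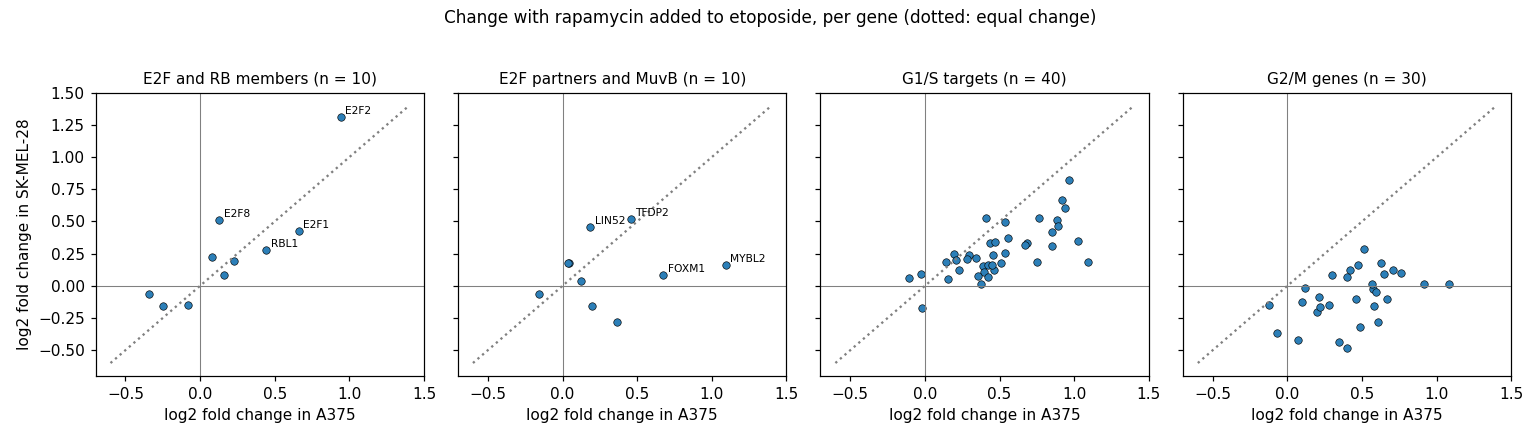
Log2 fold change with rapamycin added to etoposide in A375 (horizontal) against SK-MEL-28 (vertical), 1 point per gene tested in both lines, for the 10 E2F and RB genes, 10 partners, 40 G1/S and 30 G2/M genes, with the line of equal change dotted. Most G1/S points lie right of and above 0, while G2/M points spread along the horizontal axis around a SK-MEL-28 value near 0.

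The E2F6 complex PRC1.6, 12 genes, showed 2 rises and 3 falls in A375 and 1 rise in SK-MEL-28. The rises are near the share of all genes called higher, 14.3% and 8.83%, and 13.8% of all genes were called lower in A375. In A375 RING1 (log2 0.25, adjusted p = 0.0175) and WDR5 (0.28, adjusted p = 0.00243) rose, and MAX (-0.21, adjusted p = 0.0285), RYBP (-0.21, adjusted p = 0.0304) and CBX3 (-0.18, adjusted p = 0.0143) fell beside E2F6. MGA, the scaffold of the complex, was at 0.04 in both lines and passed in neither. Of 7 genes listed as repressed by E2F6, 3 had enough counts to be tested. In A375 TUBB3 rose (0.18, adjusted p = 0.00763), while STAG3 (-0.06) and TDRKH (-0.12) did not pass. In SK-MEL-28, 0 of the 3 were called, and all 3 had a negative log2 fold change (median -0.13). Whether E2F6 represses any of these genes in these cells was not tested. RB co-repressors, 13 genes, gave 3 rises in A375, SUV39H1 (0.45, adjusted p = 0.00894), SMARCA4 (0.22, adjusted p = 0.00605) and DNMT1. In SK-MEL-28 HDAC2 rose (0.20, adjusted p = 0.0197) and SIN3A fell (-0.22, adjusted p = 0.0481). The shares over all genes were 14.3% higher in A375 and 8.83% higher and 10.1% lower in SK-MEL-28. The medians of these lists lay between -0.13 and 0.07 in either line, closer to 0 than those of the G1/S genes.

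E2F1 and E2F2, the members called in both lines, were each set beside all genes with a mean of at least 100 counts in each line. Over the 12 libraries, on log2 CPM centred within each line, the genes most like E2F1 among 12318 were PAGR1 (r = 0.974), SLC6A10P (r = 0.970), a pseudogene with near-identical copies, and UPF1 (r = 0.967). For E2F2 they were CTSF (r = 0.980), NFE2L3 (r = 0.979) and FBXO32 (r = 0.977) among 12319. None of the 6 belongs to the lists above. The points share libraries and treatments, so these values are descriptions.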

How the data were processed

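PolyA-enriched RNA of A375 and SK-MEL-28 cells was sequenced on an Illumina NovaSeq. The authors mapped reads to GRCh38 with HISAT2, estimated expression per gene with StringTie and an Ensembl annotation. The counts deposited are whole numbers for each gene in each library, not normalized and not pooled. How coverage became counts, and the strand of the kit, are not given in the sources used here. StringTie assigns its own identifiers to most rows, so members were found by exact symbol. Of 58312 rows, 5 name no gene, with 0.000991% to 0.00529% of the counts of a library, and were left out throughout.

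Groups came from the sample titles. The study's reporting summary calls replicates biological, but nothing used here ties each library to its own culture. The p-values thus set a group difference against the spread between these libraries, which may not be the spread between separate cultures. Replicates differed by more than sampling noise (chi-square per degree of freedom 5.08 to 10.2), so none was a copy. Counts were tested with edgeR 4.0.16 in R 4.3.3 (filterByExpr with a minimum count of 10, TMM, glmQLFit, glmQLFTest, Benjamini-Hochberg over all genes tested). Each line was fitted alone, and the interaction and the line differences came from 1 fit of 12 libraries. Standard errors were derived from the log2 fold change and its F statistic. The scripts were tested on simulated data. CPM uses TMM-scaled totals, with a prior count of 2 for log2 values. Positions and lengths came from GENCODE release 44 and promoters from RefSeq. Members and lists were chosen with earlier results of these data known.

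Named genes were all 10 members, any gene of the smaller lists, and, of the G1/S and G2/M lists, the 3 with the highest mean count and in each line the called gene with the largest rise and fall. Alternatives tried were DESeq2 1.42.0, edgeR with RLE factors, library totals, 2 count filters (1 count in any library, 10 in every library), the replicate number as a block, halved counts, a fit of all libraries, rows of the same name summed, the 1.5-fold threshold, and leaving out single libraries. The study's own test was DESeq2.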

Additional observations from a re-analysis of the deposited data

Results flagged for a closer look

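None of the 10 E2F and RB genes was set apart by a response to rapamycin that differed between the lines, and groups of 3 libraries were too small to single out a library. Among the listed genes that the naming rule allows, 14 had a difference that passed the edgeR interaction test (log2 response in SK-MEL-28 minus A375). Those with a smaller or opposite response in SK-MEL-28 were MKI67 (-1.06, adjusted p = 7.89e-06), MYBL2 (-0.92, adjusted p = 0.000365), TK1 (-0.90, adjusted p = 0.00448), BUB1 (-0.88, adjusted p = 0.00716), TOP2A (-0.80, adjusted p = 7.89e-06), CENPF (-0.65, adjusted p = 0.0102), FOXM1 (-0.59, adjusted p = 0.00418), CDKN2C (-0.46, adjusted p = 0.0412), DNMT1 (-0.35, adjusted p = 0.0137), SMARCA4 (-0.30, adjusted p = 0.0163) and TUBB3 (-0.29, adjusted p = 0.00462). Those with a more positive response in SK-MEL-28 were CCND1 (0.41, adjusted p = 0.000137), KMT5B (0.35, adjusted p = 0.0467) and CBX3 (0.27, adjusted p = 0.0294).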

How the results depend on the processing

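The 1.5-fold threshold left 2 of the 10 genes higher and 0 lower in A375, 1 higher in SK-MEL-28, and 0 higher and 2 lower in SK-MEL-28 against A375 under either treatment. DESeq2 called 1 gene higher in the interaction (RB1) and 2 higher in SK-MEL-28 with etoposide (E2F3 and E2F4), and halved counts called 1 in the interaction (RB1). With each library left out in turn, 2 to 4 genes were higher and 1 to 2 lower in A375, 1 to 3 were higher in SK-MEL-28, 0 to 1 in the interaction, and 1 to 2 were higher and 3 to 5 lower in SK-MEL-28 against A375 with etoposide. Each arm then had at least 2 libraries.

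Replicate numbers did not pair the libraries: deviations of same-numbered libraries correlated between -0.0650 and 0.000515. With the replicate number as a block, E2F4 in A375 lost its call (log2 0.16, adjusted p = 0.0546), so 3 genes were higher there, and no other call among the 10 genes changed. E2F4 in A375 and E2F7 in SK-MEL-28 lost theirs when genes with 1 count in any library were kept (adjusted p = 0.0620 and 0.0582), as did RBL1 in SK-MEL-28 against A375 with etoposide (0.0743). This filter more than doubles the genes tested. E2F7 in SK-MEL-28 against A375 with etoposide gained a call on halved counts (0.0487). Signs turned for values near 0: E2F7 between the lines with rapamycin, to 2.2e-05 with library totals and to -0.053 to 0.044 over libraries left out, and over libraries left out E2F5 in the interaction (-0.13 to 0.070), RB1 with etoposide (-0.035 to 0.066) and E2F8 with rapamycin (-0.098 to 0.055). The cause was not tested. Low counts limit E2F2 and E2F8.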
